A study of Homo sapiens with 6 samples.

Results

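The genes described here are 54 human genes that copy the genome: the origin licensing factors, the MCM2-7 helicase, the factors that activate it, the DNA polymerases, the sliding clamp with its loader and lagging-strand enzymes, the nucleotide-supply enzymes, replication-coupled chromatin factors and fork-protection proteins. They were listed by function, and the rule uses no measured value. All 54 were found among the 60651 gene rows of the count tables, and all 54 were among the 15589 genes with enough reads to test. RNA-seq was made from MDA-MB-231, a human triple-negative breast cancer cell line labelled WT, grown in DMEM with fetal bovine serum. Each of the 3 groups held 2 libraries: cells given DMSO, and cells given AF-EAE, an ethyl acetate extract of Antenoron filiforme (a plant), at 75 or 150 µg/ml, each for 24 hours. The extract is a mixture of unstated composition. The series title places the study in the control of proliferation by this extract. The libraries are labelled as biological replicates, but what separates them (culture, passage or day) is not stated, so p-values cover only the spread among these libraries.

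In each cell cycle the origin recognition complex, CDC6 and CDT1 load the MCM2-7 ring onto DNA before S phase, and geminin (GMNN) blocks reloading afterwards. CDC45 and the GINS complex then join MCM2-7 to form the active helicase, and polymerases alpha, delta and epsilon copy the unwound strands around the PCNA clamp. Many of these genes are known targets of E2F transcription factors, which raise their transcription towards S phase. In RNA from bulk cultures, fewer cells in S phase and less RNA per cell cannot be told apart.

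Promoter sequences are shown first, as a description. Whether their letters have a part in the changes was not tested. The RefSeq promoter windows (GRCh38.p14, 250 bases before to 50 after a transcription start) held entries for 50 of the 54 genes, as 68 windows. Windows of MCM4, MCM5, GINS4 and POLD3 were not matched. UHRF1, UNG, MCM3 and PCNA had the smallest p of their subgroups at 150 µg/ml and are shown for that reason, and MCM6 was added after its matches were seen. Each line gives the 250 bases before the start, 5′ to 3′ along the gene's strand. Capitals mark the E2F letters TTTGGCGC, TTTCCCGC, TTTGCCGC or TTTCGCGC and the shorter, partly overlapping core GGCGGGAA or GGCGCGAA, searched on both strands.
UHRF1, chr19:4909251-4909500, forward strand: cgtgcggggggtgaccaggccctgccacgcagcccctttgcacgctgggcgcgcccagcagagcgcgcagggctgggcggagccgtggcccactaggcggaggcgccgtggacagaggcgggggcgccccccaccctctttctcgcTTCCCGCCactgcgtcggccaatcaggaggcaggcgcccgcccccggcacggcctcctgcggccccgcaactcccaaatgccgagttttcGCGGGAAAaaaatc
UNG, chr12:109097347-109097596, forward strand: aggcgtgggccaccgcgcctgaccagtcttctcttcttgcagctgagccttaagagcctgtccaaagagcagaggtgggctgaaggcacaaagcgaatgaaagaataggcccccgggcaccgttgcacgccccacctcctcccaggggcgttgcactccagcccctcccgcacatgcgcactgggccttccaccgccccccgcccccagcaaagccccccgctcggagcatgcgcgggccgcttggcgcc
MCM3, chr6:52284743-52284992, reverse strand: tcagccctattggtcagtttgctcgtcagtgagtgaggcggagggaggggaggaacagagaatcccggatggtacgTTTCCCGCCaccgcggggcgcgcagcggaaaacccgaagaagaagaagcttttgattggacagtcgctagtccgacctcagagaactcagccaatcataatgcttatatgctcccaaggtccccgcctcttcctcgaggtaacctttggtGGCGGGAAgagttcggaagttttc
PCNA, chr20:5126623-5126872, reverse strand: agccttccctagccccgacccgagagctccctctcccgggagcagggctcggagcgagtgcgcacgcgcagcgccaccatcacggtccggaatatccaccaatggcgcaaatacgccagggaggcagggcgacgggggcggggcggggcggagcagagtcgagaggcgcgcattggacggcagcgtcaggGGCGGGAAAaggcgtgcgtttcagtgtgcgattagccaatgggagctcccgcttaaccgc
MCM6, chr2:135876444-135876693, reverse strand: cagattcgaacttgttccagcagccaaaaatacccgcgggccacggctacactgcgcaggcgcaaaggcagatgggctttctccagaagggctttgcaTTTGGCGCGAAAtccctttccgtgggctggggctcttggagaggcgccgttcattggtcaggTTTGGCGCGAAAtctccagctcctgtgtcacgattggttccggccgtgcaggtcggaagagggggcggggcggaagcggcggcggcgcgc

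The MCM6 stretch held 4 E2F matches, in overlapping pairs, and 2 core matches, within the 2 copies of the capitalised run. UHRF1 and PCNA each held 1 E2F and 1 core match, and MCM3 held 1 and 2. The UNG stretch held none, although a second UNG window held TTTGCCGC. Over the whole 300-base windows, the E2F letters were in 27 of 68 windows of the members (39.7%), against 1164 of 35116 windows in the whole table (3.31%). The shorter core was in 27.9% against 4.06%. CCAAT, the letters of the NF-Y site on either strand, was in 55.9% against 34.6%. The CHR letters TTTGAA or TTCGAA, known from mitotic gene promoters, were in 8.82% against 16.4%. By subgroup, the E2F share ran from 25% of windows for the nucleotide genes to 66.7% for MCM2-7. Counted by gene the order differed. The E2F letters were in 3 of 6 nucleotide genes, which have 12 windows, and in 1 of 5 chromatin genes, the lowest share. All 4 MCM2-7 genes with an entry held them. The E2F letters were in 40.7% of the windows of members lower at both doses and in 33.3% of those of the remaining members. These are matches of letters and not measured binding, and windows of 1 gene can overlap.

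Most replication genes were lower after the extract. At 75 µg/ml, 44 of 54 fell and 2 rose (adjusted p under 0.05, edgeR quasi-likelihood test), while 19.4% of all tested genes fell and 19.2% rose. At 150 µg/ml, 46 fell and 2 rose, against 25.7% and 25.8% of all tested genes. The median log2 fold change of the members was -0.40 at 75 µg/ml and -0.55 at 150 µg/ml, beside 0.01 and 0.03 for all tested genes. At 150 µg/ml, 10 members fell by 1 or more on the log2 scale, a size that 3.99% of tested genes reached. At 75 µg/ml it was 4 members, against 1.26%. The share of all gene counts that came from the 54 genes was 0.735% and 0.726% in DMSO, 0.541% and 0.547% in the 75 µg/ml libraries, and 0.510% and 0.510% in those given 150 µg/ml.

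The 44 genes that fell at 75 µg/ml also fell at 150 µg/ml. GINS4 and ASF1B fell at 150 µg/ml and did not pass at 75 µg/ml. ORC3 and TIMELESS rose at both doses. ORC2, ORC5, ORC6, GINS3, POLA2 and RFC1 passed the test at neither dose. The doses were compared with the same DMSO libraries, so the 2 sets of calls are not independent. With scaling by total counts instead of TMM, the median log2 fold change of all tested genes was 0.141 at 75 µg/ml, against 0.0148, and 0.217 at 150 µg/ml, against 0.029. All tested genes then split into 1816 lower and 4501 higher at 75 µg/ml, against 3026 and 2989 with TMM, and 2542 and 6031 at 150 µg/ml, against 4000 and 4022. The members falling were then 34 and 36, and those rising 3 and 4. The calls lost with this scaling were those of CDC7, CDT1, POLD3 and RFC3 at 75 µg/ml, of ASF1B, CDC6, DTL and GINS4 at 150 µg/ml, and of CHAF1A, PRIM1, PRIM2, RFC4, RFC5 and RRM1 at both, and GINS3 and RFC1 were called higher at 150 µg/ml.

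**Figure D1:**
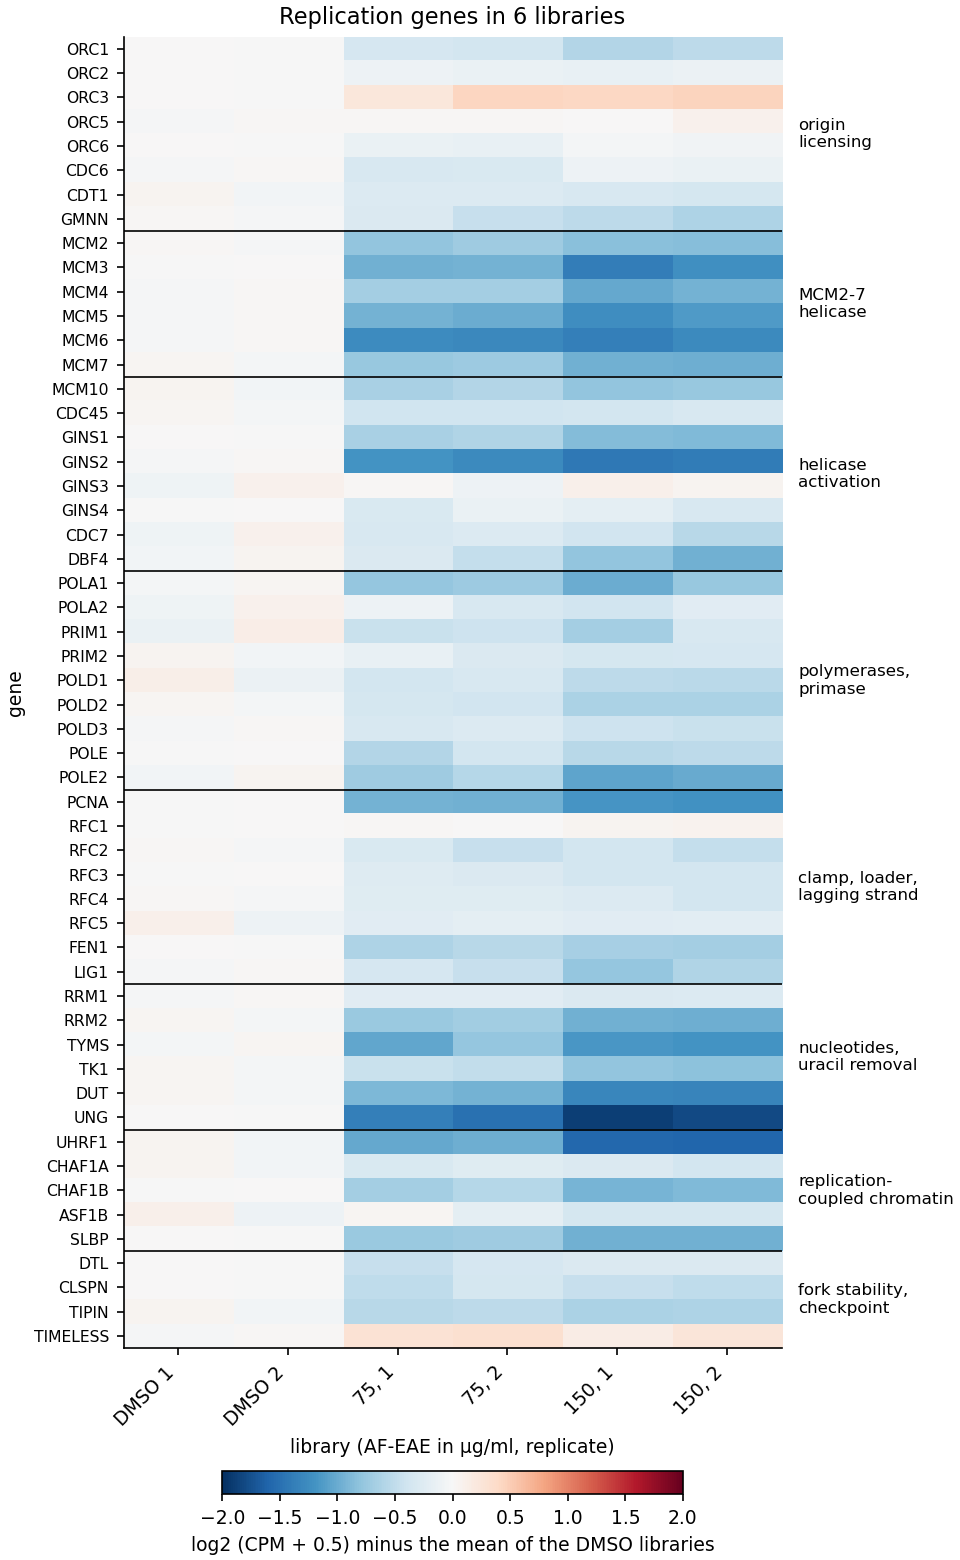
Each row is 1 of the 54 genes and each column 1 of the 6 libraries. Colour gives log2 (CPM + 0.5) minus the mean of the DMSO libraries, from blue (lower) to red (higher). MCM2-7, PCNA, DUT, UNG and UHRF1 are blue in all 4 treated libraries, while ORC3 and TIMELESS are red.

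Origin licensing genes had the smallest median change of the 8 subgroups at both doses. Of 8 licensing genes, 4 fell and 1 rose at each dose, with a median log2 fold change of -0.21 at 75 µg/ml and -0.13 at 150 µg/ml. Levels are given as TMM-scaled CPM, counts relative to library size, in the 2 libraries of each group. GMNN, the inhibitor of CDT1, fell from 94.6 and 91.7 CPM (DMSO) to 76.5 and 67.6 CPM (75 µg/ml) and 64.6 and 60.8 CPM (150 µg/ml). The groups did not overlap, and the log2 fold change at 150 µg/ml was -0.57 (SE 0.0706, adjusted p = 2.8e-06). ORC1, the large ATPase subunit of the origin recognition complex, fell from 41.7 and 41.0 CPM (DMSO) to 32.8 and 32.1 CPM (75 µg/ml) and 27.5 and 28.5 CPM (150 µg/ml). Its log2 fold change was -0.35 (SE 0.0836, adjusted p = 0.00296) at 75 µg/ml and -0.56 (SE 0.0846, adjusted p = 2.6e-05) at 150 µg/ml. CDT1, which brings the helicase to origins, fell from 109 and 102 CPM (DMSO) to 87.4 and 87.2 CPM (75 µg/ml) and 84.3 and 83.1 CPM (150 µg/ml). Its treated libraries lay close together, with log2 fold changes of -0.28 (SE 0.0598) and -0.34 (SE 0.0599).

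CDC6, the loading ATPase, had a different course. It measured 246 and 252 CPM with DMSO, 199 and 202 CPM with 75 µg/ml, and 233 and 226 CPM with 150 µg/ml. Both libraries at 75 µg/ml were below all others, and those at 150 µg/ml lay between them and DMSO. The log2 fold change was -0.31 (SE 0.0476, adjusted p = 5.7e-05) at 75 µg/ml, and from 75 to 150 µg/ml it was 0.19 (SE 0.0476, adjusted p = 0.00736), the single rise among the 54 genes in that comparison. The rise was not past the test without 75 µg/ml replicate 1 or 150 µg/ml replicate 1. Against DMSO at 150 µg/ml it was -0.12 (SE 0.0473, adjusted p = 0.0487), a call lost when any 1 library was left out. With total-count scaling that value was 0.07, the opposite sign.

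The other 4 origin recognition complex subunits among the 54 genes did not fall by the test. ORC4, a subunit outside the 54, fell at 75 µg/ml (-0.22, SE 0.0829, adjusted p = 0.047) and did not pass at 150 µg/ml (-0.04, SE 0.0819, adjusted p = 0.746). ORC3 rose from 32.2 and 32.1 CPM (DMSO) to 37.8 and 43.6 CPM (75 µg/ml) and 43.0 and 44.0 CPM (150 µg/ml). Both DMSO libraries were below all 4 treated ones, with log2 fold changes of 0.34 (SE 0.0885, adjusted p = 0.00553) and 0.44 (SE 0.0879, adjusted p = 4.7e-04). The call at 75 µg/ml was lost without the second library at that dose. ORC2 measured 68.8 and 68.5 CPM with DMSO, 63.8 and 62.9 CPM with 75 µg/ml, and 61.8 and 63.1 CPM with 150 µg/ml. ORC6 measured 103 and 103 CPM with DMSO, 93.5 and 92.3 CPM with 75 µg/ml, and 100.2 and 97.6 CPM with 150 µg/ml, lowest at the middle dose. ORC5 was level, with 24.3 and 24.9 CPM with DMSO, 24.9 and 24.9 CPM with 75 µg/ml, and 24.6 and 26.1 CPM with 150 µg/ml. None of these 3 passed the test, with adjusted p at 150 µg/ml of 0.0922, 0.443 and 0.723. Per kilobase of exon, ORC6 was the highest of these 5 subunits in DMSO (23.8 ± 0.070 RPKM, SD, n = 2) and ORC5 the lowest (6.60 ± 0.12 RPKM).

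All 6 genes of the MCM2-7 ring fell at both doses. The median log2 fold change was -0.85 at 75 µg/ml and -1.08 at 150 µg/ml. Within the ring MCM6 had the largest change at 75 µg/ml, and it fell from 187 and 192 CPM (DMSO) to 79.1 and 76.9 CPM (75 µg/ml) and 72.9 and 78.3 CPM (150 µg/ml). The 2 treated groups overlapped, and the loss of 58.8% at 75 µg/ml was followed by a log2 change of -0.05 (SE 0.0603, adjusted p = 0.662). MCM3 fell from 437 and 443 CPM (DMSO) to 225 and 228 CPM (75 µg/ml) and 168 and 188 CPM (150 µg/ml). Unlike MCM6, it fell again between the doses, by a log2 change of -0.35 (SE 0.0541, adjusted p = 1.7e-04). MCM5 fell from 229.6 and 236 CPM (DMSO) to 121 and 117 CPM (75 µg/ml) and 98.0 and 106 CPM (150 µg/ml), with a log2 change of -1.19 (SE 0.055) at the higher dose.

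MCM4 fell from 294 and 304 CPM (DMSO) to 187 and 187 CPM (75 µg/ml) and 147 and 155 CPM (150 µg/ml), and it also fell between the doses (-0.31, SE 0.0505, adjusted p = 3.3e-04). MCM7, the most abundant of the 6 per kilobase of exon, fell from 578 and 549.8 CPM (DMSO) to 334 and 342 CPM (75 µg/ml) and 288 and 287 CPM (150 µg/ml). MCM2 fell from 252 and 242 CPM (DMSO) to 143 and 151 CPM (75 µg/ml) and 137 and 137 CPM (150 µg/ml), the smallest log2 fold change of the ring at 150 µg/ml (-0.85, SE 0.0514, adjusted p = 3.4e-10). For MCM2, 23.6% of its exon length is shared with other annotated genes, and counting by strand is not stated, so part of its reads cannot be told from those of its neighbours. In every one of the 6 genes, both DMSO libraries were above all 4 treated libraries. How many of all tested genes had the same separation was not counted.

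**Figure D2:**
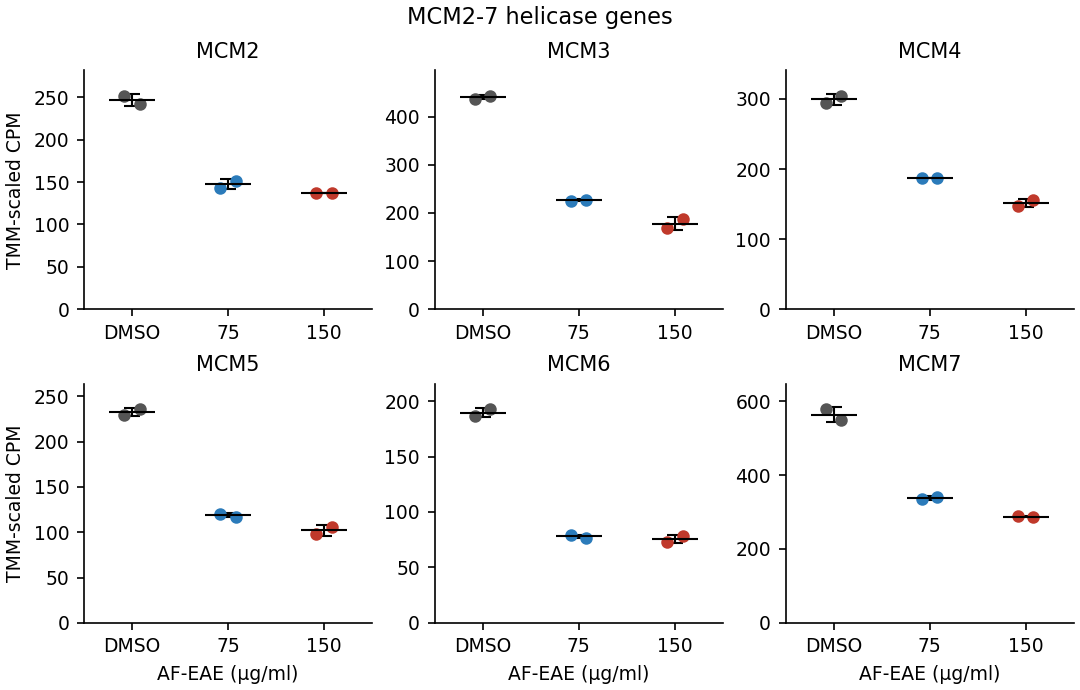
TMM-scaled CPM of the 6 MCM2-7 genes against AF-EAE dose in µg/ml. Points are libraries, and the bars show the mean and SD of 2 libraries. DMSO lies above both doses in every panel, and for MCM6 the 75 and 150 µg/ml points overlap.

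Per kilobase of exon, the ring genes were not equally abundant. In DMSO, MCM7 stood at 129 ± 4.5 RPKM (SD, n = 2) and MCM3 at 121 ± 1.1 RPKM, followed by MCM2 at 50.4 ± 1.4 and MCM6 at 46.0 ± 1.0. MCM4 followed at 42.9 ± 1.1 and MCM5 at 31.7 ± 0.57 RPKM, and no neighbours in this order overlapped between libraries. At 150 µg/ml MCM7 was at 65.5 ± 0.23 and MCM5 at 13.9 ± 0.80 RPKM, and MCM6 (18.4 ± 0.93) stood below MCM4 (21.7 ± 0.82). The highest level was 4.05 times the lowest in DMSO. With the length of the longest transcript MCM7 and MCM3 kept the top places, but MCM4 was above MCM6 in DMSO too, so the lower part of the order depends on the length used.

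Helicase activation genes were mixed. Of 8, 6 fell at 75 µg/ml and 7 at 150 µg/ml, with medians of -0.39 and -0.63. The GINS complex holds CDC45 against the MCM ring and has 4 subunits. GINS2 fell from 79.9 and 82.0 CPM (DMSO) to 35.1 and 33.1 CPM (75 µg/ml) and 29.8 and 30.5 CPM (150 µg/ml), a log2 change of -1.25 (SE 0.0745, adjusted p = 1.1e-09) at 75 µg/ml and -1.43 (SE 0.0754, adjusted p = 6.1e-11) at 150 µg/ml. GINS1 fell from 55.3 and 55.2 CPM (DMSO) to 35.2 and 36.4 CPM (75 µg/ml) and 30.1 and 29.9 CPM (150 µg/ml), with -0.88 (SE 0.0788) at the higher dose. These 2 subunits lost 62.8% and 45.7% of their DMSO level.

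GINS3, the third subunit, measured 28.2 and 31.5 CPM with DMSO, 30.1 and 27.8 CPM with 75 µg/ml, and 32.0 and 30.9 CPM with 150 µg/ml. Both treated groups overlapped DMSO, and it passed at neither dose (0.08, SE 0.0946, adjusted p = 0.526 at 150 µg/ml). GINS4 lay between, at -0.26 (SE 0.0872, adjusted p = 0.0184), a call lost without DMSO replicate 2 or 150 µg/ml replicate 2, and 23.6% of its exon length is shared with other genes. MCM10, which helps the helicase open the origin, fell from 117 and 108 CPM (DMSO) to 71.5 and 74.3 CPM (75 µg/ml) and 64.7 and 66.1 CPM (150 µg/ml), with -0.78 (SE 0.0636) at 150 µg/ml. CDC45 fell from 96.8 and 92.4 CPM (DMSO) to 71.5 and 71.2 CPM (75 µg/ml) and 72.8 and 76.0 CPM (150 µg/ml). Its libraries at 150 µg/ml were slightly above those at 75 µg/ml, a difference that did not pass the test (adjusted p = 0.55).

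DBF4, the activating subunit of the CDC7 kinase that switches on the loaded helicase, fell from 76.5 and 82.2 CPM (DMSO) to 65.2 and 56.8 CPM (75 µg/ml) and 45.7 and 40.3 CPM (150 µg/ml). By point estimate its larger loss came in the second step, -0.51 (SE 0.0848, adjusted p = 3.8e-04), after -0.38 (SE 0.0812) in the first, but the difference between the steps did not pass (adjusted p = 0.628). CDC7 itself had log2 fold changes of -0.30 (SE 0.0728) and -0.47 (SE 0.0734). Pseudogene copies named after 12 of the 54 genes, DBF4 among them, are among the reference gene symbols. Their own counts were not examined, and how reads shared with a copy were assigned is not stated.

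Of the 9 polymerase and primase genes, 8 fell at each dose, with medians of -0.37 and -0.54. POLA1, the catalytic subunit of the alpha polymerase that starts each strand, fell from 72.7 and 76.3 CPM (DMSO) to 43.3 and 44.8 CPM (75 µg/ml) and 37.2 and 43.7 CPM (150 µg/ml), with -0.88 (SE 0.0815) at 150 µg/ml. POLA2, its regulatory partner, had the lowest level per kilobase of the 9 genes (1.33 ± 0.12 RPKM in DMSO) and measured 7.12 and 8.12 CPM with DMSO, 7.09 and 6.01 CPM with 75 µg/ml, and 5.74 and 6.44 CPM with 150 µg/ml. Its change did not pass the test (-0.32, SE 0.181, adjusted p = 0.151 at 150 µg/ml), and 35.1% of its exon length is shared with other genes. POLE2, a subunit of the leading-strand polymerase epsilon, fell from 47.2 and 50.9 CPM (DMSO) to 29.9 and 32.8 CPM (75 µg/ml) and 23.5 and 24.2 CPM (150 µg/ml). It was the largest loss of this group, -1.04 (SE 0.0896, adjusted p = 3.2e-08) at 150 µg/ml. POLD2, of the lagging-strand polymerase delta, fell from 256 and 240.1 CPM (DMSO) to 194 and 190.1 CPM (75 µg/ml) and 159 and 159.9 CPM (150 µg/ml), with -0.64 (SE 0.0505, adjusted p = 1.2e-08). The other polymerase genes that fell (PRIM1, PRIM2, POLD1, POLD3 and POLE) had log2 fold changes between -0.34 and -0.54 at 150 µg/ml. The PRIM1 call (adjusted p = 0.0058) was lost without DMSO replicate 2 or 150 µg/ml replicate 1.

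Among the clamp and lagging-strand genes, 7 of 8 fell at each dose. PCNA, the sliding clamp, fell from 287 and 287 CPM (DMSO) to 149 and 146 CPM (75 µg/ml) and 127 and 124 CPM (150 µg/ml). The DMSO libraries were nearly equal and the log2 fold change was -0.96 (SE 0.0485, adjusted p = 1.3e-10) at 75 µg/ml and -1.19 (SE 0.049, adjusted p = 2.4e-12) at 150 µg/ml. Per kilobase of exon PCNA went from 195 ± 0.012 to 85.3 ± 1.3 RPKM (SD, n = 2). FEN1, the flap nuclease that trims Okazaki fragments, fell from 217 and 216 CPM (DMSO) to 142 and 147 CPM (75 µg/ml) and 136 and 136 CPM (150 µg/ml). LIG1, the ligase that joins them, fell from 66.3 and 68.3 CPM (DMSO) to 53.4 and 48.5 CPM (75 µg/ml) and 39.0 and 44.3 CPM (150 µg/ml). FEN1 had log2 fold changes of -0.59 (SE 0.0498) and -0.67 (SE 0.0499), and LIG1 -0.40 (SE 0.0793) and -0.69 (SE 0.0806).

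Of the 5 clamp loader genes, 4 fell. RFC1, the large subunit, measured 139 and 141 CPM with DMSO, 143 and 141 CPM with 75 µg/ml, and 145 and 147 CPM with 150 µg/ml, with a log2 change of 0.06 (SE 0.051, adjusted p = 0.356) at 150 µg/ml. With total-count scaling RFC1 was called higher at both doses. The small subunits RFC2, RFC3, RFC4 and RFC5 had log2 fold changes of -0.42 (SE 0.0698), -0.37 (SE 0.0635), -0.33 (SE 0.0579) and -0.22 (SE 0.0795) at 150 µg/ml. The call on RFC5 was lost without DMSO replicate 1 or either library at 150 µg/ml. The median over the 8 genes was -0.40 at 150 µg/ml.

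All 6 nucleotide-supply and uracil-removal genes fell at both doses, with medians of -0.82 and -1.09. UNG, which cuts uracil out of DNA, had the largest fall of all 54 genes. It fell from 149 and 148 CPM (DMSO) to 57.0 and 52.3 CPM (75 µg/ml) and 40.0 and 42.0 CPM (150 µg/ml), a log2 change of -1.44 (SE 0.0645, adjusted p = 3.2e-11) at 75 µg/ml and -1.85 (SE 0.0664, adjusted p = 4.3e-13) at 150 µg/ml. DUT, the dUTPase that keeps uracil from being built in, fell from 147 and 138 CPM (DMSO) to 76.5 and 73.4 CPM (75 µg/ml) and 57.2 and 57.0 CPM (150 µg/ml). DUT had -1.32 (SE 0.0615, adjusted p = 1.3e-11) at 150 µg/ml, and 8 pseudogene copies are named after it. Neither gene's groups overlapped, and both also fell from 75 to 150 µg/ml.

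Ribonucleotide reductase, which makes deoxynucleotides, has a large subunit RRM1 and an S-phase small subunit RRM2. RRM2 fell from 595 and 563 CPM (DMSO) to 344 and 358 CPM (75 µg/ml) and 298 and 295 CPM (150 µg/ml), whereas RRM1 measured 329.9 and 340.5 CPM with DMSO, 286 and 287 CPM with 75 µg/ml, and 275 and 276 CPM with 150 µg/ml. The log2 fold changes at 150 µg/ml were -0.96 (SE 0.0467) for RRM2 and -0.28 (SE 0.0453) for RRM1, and both passed the test. The difference between the 2 subunits was not tested, and 20.2% of the exon length of RRM2 is shared with other genes. TYMS, thymidylate synthase, had log2 fold changes of -0.92 (SE 0.119) and -1.22 (SE 0.121), but 46.6% of its exon length overlaps ENOSF1 and TYMSOS. TK1, the salvage thymidine kinase, fell in both steps, with log2 changes of -0.47 (SE 0.0494) and then -0.33 (SE 0.0504).

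Of the 5 replication-coupled chromatin genes, 4 fell at 75 µg/ml and all 5 at 150 µg/ml, with medians of -0.63 and -0.91. UHRF1, which brings the maintenance methyltransferase to newly copied DNA, fell from 312 and 289 CPM (DMSO) to 147 and 152 CPM (75 µg/ml) and 101 and 99.1 CPM (150 µg/ml). Its log2 fold change was -1.59 (SE 0.0547, adjusted p = 2.5e-13) at 150 µg/ml, the smallest p of all members, and it lost a further 33.1% between the doses. SLBP, which binds the stem-loop of replication-dependent histone mRNAs, fell from 149 and 148 CPM (DMSO) to 88.7 and 90.4 CPM (75 µg/ml) and 75.9 and 76.2 CPM (150 µg/ml), with -0.96 (SE 0.0556) at 150 µg/ml. Of 67 replication-dependent histone genes, 14 had enough reads to test, and 5 of them fell and 1 rose at that dose, where 25.7% and 25.8% of all tested genes did. At 75 µg/ml 2 of the 14 fell and 1 rose, where 19.4% and 19.2% of all tested genes did. Most of the 67 were at or near 0 CPM, so these libraries hardly sample this gene family. Of the 14, H2BC12 (49.9 and 48.1 CPM) and H1-2 (18.3 and 21.2 CPM) were highest in DMSO. No other of the 14 was above 8.83 CPM there. CHAF1B, a subunit of the histone chaperone CAF-1, fell from 61.0 and 61.9 CPM (DMSO) to 38.2 and 41.3 CPM (75 µg/ml) and 32.1 and 33.2 CPM (150 µg/ml). Its log2 change at 150 µg/ml was -0.91 (SE 0.0782), beside -0.33 (SE 0.0637) for its partner CHAF1A, a difference that was not tested. ASF1B, the proliferation-linked histone chaperone, measured 81.2 and 70.8 CPM with DMSO, 77.5 and 66.5 CPM with 75 µg/ml, and 59.5 and 59.3 CPM with 150 µg/ml. Its DMSO and 75 µg/ml libraries overlapped, and it passed at the higher dose only (-0.36, SE 0.0824, adjusted p = 0.00149), a call lost with total-count scaling.

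The fork-protection genes split. TIPIN and TIMELESS form 1 complex that travels with the fork. TIPIN fell from 48.0 and 44.7 CPM (DMSO) to 31.3 and 32.0 CPM (75 µg/ml) and 29.8 and 29.9 CPM (150 µg/ml), and TIMELESS rose from 119 and 122 CPM (DMSO) to 147 and 151 CPM (75 µg/ml) and 134 and 142 CPM (150 µg/ml). The groups did not overlap for either gene in the comparisons with DMSO. TIPIN had -0.63 (SE 0.0837, adjusted p = 5.8e-06) at 150 µg/ml, with 21.0% of its exon length shared with other genes. TIMELESS had 0.31 (SE 0.0542, adjusted p = 2.4e-04) at 75 µg/ml and 0.20 (SE 0.0543, adjusted p = 0.0053) at 150 µg/ml, the latter lost without 150 µg/ml replicate 2. CLSPN, the claspin adaptor that passes the fork signal to CHEK1, fell from 97.8 and 97.0 CPM (DMSO) to 68.2 and 76.6 CPM (75 µg/ml) and 71.0 and 68.3 CPM (150 µg/ml). DTL, which marks CDT1 for destruction on PCNA-loaded DNA, fell from 109 and 108 CPM (DMSO) to 79.1 and 86.4 CPM (75 µg/ml) and 89.1 and 88.6 CPM (150 µg/ml). At 150 µg/ml the log2 changes were -0.48 (SE 0.0673) for CLSPN and -0.29 (SE 0.0607) for DTL. Neither passed between the doses, with -0.06 (SE 0.0684) and 0.10 (SE 0.0616).

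For most members the larger change was in the first dose step. All tested genes leaned the same way: 38.6% were called in either direction at 75 µg/ml against DMSO, and 22% at 150 against 75 µg/ml. From 75 to 150 µg/ml, 18 members fell and 1 rose, against 12.5% and 9.51% of all tested genes, and 17 of the 18 had also fallen in the first step. The doses are equally spaced, so each gene's second step was set against its first, in the same model. For 22 members the second step was higher on the log2 scale than the first (5.86% of tested genes), and all 22 had fallen in the first step. A fall in the first step itself raises this difference, so that overlap is no separate result. The 5.86% also covers genes that rose in the first step, and the share among those that fell was not counted. Of these 22, 10 still fell in the second step, 11 did not pass there, and CDC6 rose. TIMELESS was the single member with the opposite difference (-0.41, SE 0.0925, adjusted p = 0.00679), a direction called in 7.4% of tested genes, and that call was lost without either library at 75 µg/ml.

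All 6 MCM2-7 genes were among the 22. The largest differences were those of MCM6 (1.24, SE 0.104, adjusted p = 1.3e-06), GINS2 (1.07, SE 0.136, adjusted p = 6.8e-05) and UNG (1.03, SE 0.118, adjusted p = 2.5e-05). For MCM2, MCM6, MCM10, CDC45, GINS2, POLA1, POLE, FEN1, DTL, CLSPN and TIPIN no change between the doses passed the test. Of the 49 members below DMSO at 150 µg/ml by point estimate, 47 had the larger part of the change in the first step. The same share over all tested genes was not counted. The steps share the 75 µg/ml libraries, so an error there moves them in opposite directions. Without 75 µg/ml replicate 1, 13 members had the smaller second step, and the calls on CDC45, CLSPN, DTL, MCM4, MCM10, POLA1, POLE, TIPIN and UHRF1 were lost. Without 150 µg/ml replicate 1, 11 members fell from 75 to 150 µg/ml, and the calls on ASF1B, CHAF1B, GINS1, LIG1, MCM5, POLE2 and SLBP were lost.

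**Figure D3:**
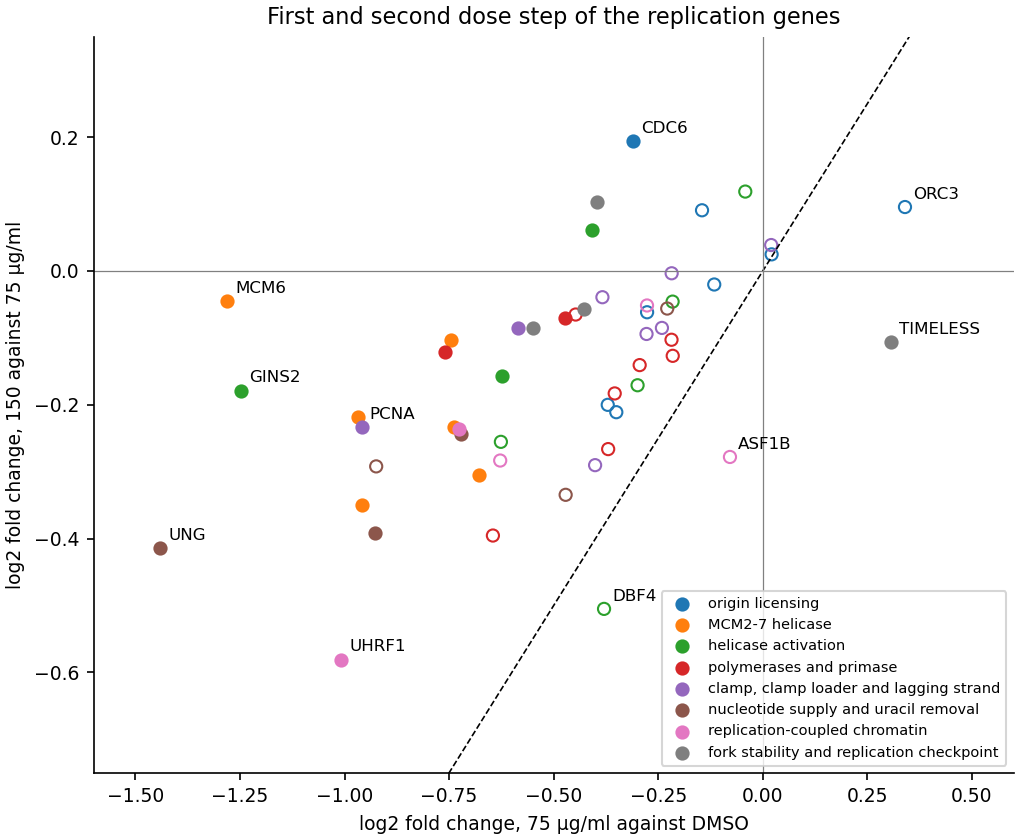
Each point is 1 gene, with the log2 fold change of 75 µg/ml against DMSO on the x axis and of 150 against 75 µg/ml on the y axis. Colour gives the subgroup, filled points have a tested difference between the steps (adjusted p under 0.05), and the dashed line marks equal steps. Most points on the left lie above the line, with MCM6, GINS2 and UNG farthest from it.

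Genes of mitosis were measured as a comparison in the same libraries. Of 32 such genes, 24 fell at 75 µg/ml and 30 at 150 µg/ml, against 19.4% and 25.7% of all tested genes. Their medians were -0.37 and -0.96. From 75 to 150 µg/ml 30 of 32 fell, against 12.5% of all tested genes. The median there was -0.63, whereas the median of the replication genes was -0.12. PRC1 and NUSAP1, which passed in none of these comparisons, had means under 1 CPM in every group. In the test of the step difference, 14 mitosis genes had the lower second step (7.4% of tested genes) and the remaining 18 did not pass. Among the replication genes, 1 had the lower second step and 22 the higher one. The median step difference was -0.32 for the mitosis genes and 0.30 for the replication genes. The difference between the 2 lists was not tested, and the comparisons share libraries. In the promoter windows, the E2F letters were in 48.5% of the windows of genes with a smaller second step and 31.4% of those of the other members, and CCAAT in 69.7% and 42.9%. By window the shorter E2F core went the other way, at 24.2% and 31.4%, but by gene it did not. The core was in 8 of 20 genes with a smaller second step and 10 of 30 others. The E2F letters were in 15 of 20 and 11 of 30. The 20 genes had 33 windows and the 30 had 35, so window shares depend on the starts per gene.

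**Figure D4:**
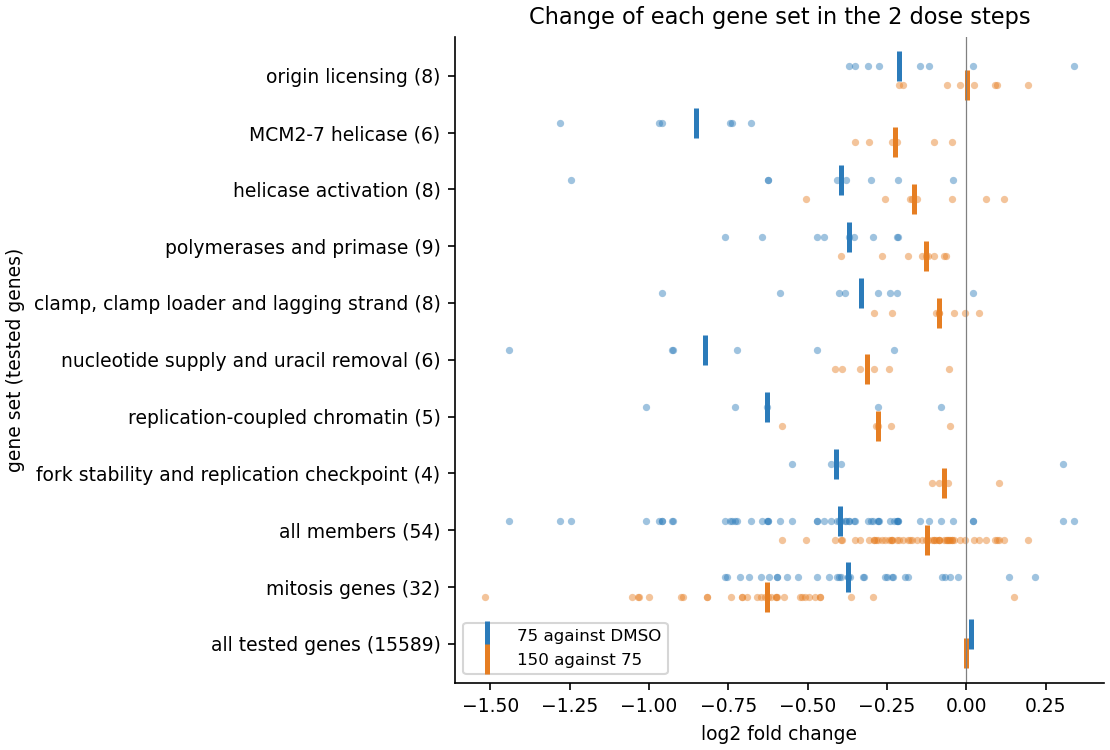
Log2 fold changes by gene set, for 75 µg/ml against DMSO and for 150 against 75 µg/ml. Small points are genes and large marks the median of each set. Each replication subgroup has its median farther left in the first step than in the second, and the mitosis genes have theirs farther left in the second.

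A further 56 genes outside the 54 were listed as other replication genes, of which 55 had enough reads to test. That list also holds cell cycle regulators such as E2F1, E2F7, CCNA2, CHEK1 and WEE1, and TOP2A, which is in the mitosis list too. At 75 µg/ml 39 fell and 5 rose, against 19.4% and 19.2% of all tested genes. At 150 µg/ml 44 fell and 4 rose, against 25.7% and 25.8%. Their median log2 fold change at 150 µg/ml was -0.43. HELLS, a chromatin remodeller of DNA methylation maintenance, fell from 138 and 132 CPM (DMSO) to 74.4 and 74.5 CPM (75 µg/ml) and 60.4 and 62.1 CPM (150 µg/ml). E2F1, a transcription factor of the replication programme, fell from 152 and 147 CPM (DMSO) to 81.1 and 86.9 CPM (75 µg/ml) and 68.5 and 69.4 CPM (150 µg/ml). CTPS1, which makes CTP, fell from 120.3 and 110.3 CPM (DMSO) to 63.2 and 64.2 CPM (75 µg/ml) and 50.6 and 52.3 CPM (150 µg/ml), and CCNA2, the S-phase cyclin, fell from 220.1 and 219 CPM (DMSO) to 169 and 167 CPM (75 µg/ml) and 104 and 115 CPM (150 µg/ml). The HELLS, E2F1 and CTPS1 falls were mostly in the first step, with log2 changes of -0.86, -0.83 and -0.86 at the lower dose and -1.14, -1.12 and -1.16 at the higher, and CCNA2 had -0.39 in the first step and -0.61 in the second. The difference between the steps of CCNA2 did not pass the test (adjusted p = 0.132).

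The 4 that rose at 150 µg/ml included alternative forms of members that fell. RRM2B, the p53-inducible small subunit of ribonucleotide reductase, rose from 42.8 and 51.5 CPM (DMSO) to 63.1 and 65.3 CPM (75 µg/ml) and 78.6 and 69.5 CPM (150 µg/ml), opposite to RRM2. ASF1A, the second ASF1 chaperone, rose from 22.8 and 24.6 CPM (DMSO) to 32.5 and 28.9 CPM (75 µg/ml) and 37.3 and 33.2 CPM (150 µg/ml), opposite to ASF1B. E2F7, a repressor of E2F target genes, rose from 174 and 172 CPM (DMSO) to 216 and 235 CPM (75 µg/ml) and 285 and 278 CPM (150 µg/ml). The other E2F genes of the list fell at 150 µg/ml. Besides E2F1, these were E2F8 (-1.31, SE 0.0972, adjusted p = 4.8e-09), E2F2 (-1.71, SE 0.136) and E2F3 (-0.40, SE 0.0627). POLD4, the small subunit of polymerase delta, rose from 1.13 and 1.24 CPM (DMSO) to 3.79 and 3.24 CPM (75 µg/ml) and 5.26 and 4.70 CPM (150 µg/ml), opposite to POLD1, POLD2 and POLD3. The POLD4 level was low in all libraries, and its log2 fold change at 150 µg/ml was 2.06 (SE 0.283, adjusted p = 9.3e-06). RRM2B had 0.65 (SE 0.0868, adjusted p = 6.5e-06) and ASF1A 0.57 (SE 0.101, adjusted p = 1.3e-04) in the same comparison.

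Gene counts ran from 15621103 to 17113722 a library, and the members had 95 to 9434 counts a library. A value of 3 counts equals 0.175 to 0.192 CPM, far under every member. Reads outside annotated genes were 6.32% to 6.72% of all counts in DMSO, 6.44% to 7.23% with 75 µg/ml and 7.73% to 7.98% with 150 µg/ml, and their part in the results was not tested. Markers of the line were present (VIM, CD44, EGFR, KRT8 and KRT18), ESR1, PGR and CDH1 stayed under 1 CPM, and the leukocyte genes PTPRC and CD3E had 0 counts in all 6 libraries. ERBB2 was at 81.2 to 99.4 CPM.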

How the data were processed

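Total RNA of 6 MDA-MB-231 samples was sequenced with the NEBNext Ultra RNA kit, per the labels' protocols. The deposited files hold 1 whole-number count per gene and library. Per the submitters' processing notes, the authors used HISAT2 2.2.1, HTSeq 2.0.2 and the hg38 build, and annotation and strand setting were not stated. Symbols came from a gene table for 60437 of 60651 rows (99.94% of counts), and the 5 summary rows were left out (no feature 6.32% to 7.98% and ambiguous 10.95% to 11.48% of all counts, summary rows included). Counts were scaled by TMM, filtered by edgeR's filterByExpr (15589 genes) and tested with edgeR 4.0.16's quasi-likelihood test in 1 model of 3 groups, with Benjamini-Hochberg adjustment over all tested genes and a threshold of 0.05. The biological coefficient of variation was 5.08%. Standard errors were the log2 fold change divided by the root of F. RPKM divides TMM-scaled CPM by union exon length from GENCODE. The step difference is the 150 against 75 change minus the 75 against DMSO change. DESeq2 1.42.0, limma 3.58.1 and R 4.3.3 were used for alternatives. Members, lists and tests were chosen with earlier results of these data known. Genes shown library by library were the 3 with the smallest p at 150 µg/ml in each subgroup, all MCM2-7 genes, those that rose in any comparison, those past the test at neither dose, and, of the other replication genes, the 4 with the smallest p and each that rose at 150 µg/ml. CDC45, DBF4, RRM1 and ASF1B were added after their values were seen. Promoters are from RefSeq. A planned search of protein sequences was not used here.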

Additional observations from a re-analysis of the deposited data

How the results depend on the processing

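With 2 libraries a group, the spread was estimated over all 3 groups, and a group left with 1 library is assumed to vary like the others. Requiring a log2 fold change of at least 0.5 left 21, 30 and 2 members lower (75 against DMSO, 150 against DMSO, 150 against 75) and 0, 0 and 0 higher by edgeR, beside 44, 46 and 18 lower and 2, 2 and 1 higher without that limit. Of the other replication genes it left 12, 20 and 4 lower, and 1 higher at 75 µg/ml and 0 higher between the doses. It left 12 members with a smaller second step and 0 with the opposite difference. Total-count scaling gave 4 members higher at 150 µg/ml and, among the other replication genes between the doses, 12 lower and 5 higher, and it turned CDC6 at 150 µg/ml to 0.0714 on the log2 scale. An adjusted p limit of 0.01 left 1 of those other genes higher between the doses. With a filter of 5 CPM, the subgroup medians relative to all tested genes at 75 µg/ml were -0.19 (licensing), -0.35 (polymerases) and -0.80 (nucleotides). At 150 µg/ml they were -0.11 (licensing), -1.07 (MCM2-7), -0.61 (activation), -0.52 (polymerases), -0.38 (clamp) and -1.07 (nucleotides). Fewer and more abundant genes then set the reference median.

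Leaving out 1 library at a time gave 1 to 2 members higher at 75 and at 150 µg/ml, 11 to 20 lower and 0 to 1 higher between the doses, and 13 to 21 with a second step above and 0 to 1 with one below the first on the log2 scale. The other replication genes ran from 3 to 5 higher at 75 µg/ml, and from 6 to 20 lower and 1 to 3 higher between the doses. The relative medians at 75 µg/ml ran from -0.25 to -0.21 (licensing), -0.46 to -0.37 (activation), -0.44 to -0.35 (polymerases), -0.39 to -0.29 (clamp), -0.85 to -0.76 (nucleotides), -0.69 to -0.59 (chromatin) and -0.49 to -0.35 (fork). At 150 µg/ml they ran from -0.18 to -0.15 (licensing), -1.165 to -1.078 (MCM2-7) and -0.60 to -0.55 (polymerases), and between the doses from -0.023 to 0.035 (licensing) and -0.18 to -0.12 (polymerases). The E2F share of member windows was 27.9% with the shorter core letters, and the highest MCM2-7 level was 3.62 times the lowest by longest transcript. In at least 1 setting, the subgroup medians and the MCM2-7 level ratio moved by more than the spread between libraries. The gene counts moved by more than a set ratio to the main count. The E2F share fell outside the confidence interval of its main value, and CDC6 changed sign. The cause was not tested.

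Whether the replicate numbers pair the libraries is not stated. Deviations of same-numbered libraries from their group means had correlations of 0.059, 0.041 and 0.0037 over all tested genes, none over 0.1. Noise in weakly counted genes lowers such values, so they do not settle whether the libraries are paired. With the replicate block, 44 and 46 members were lower at 75 and 150 µg/ml and 20 between the doses, and 24 had a smaller second step. Over all tested genes, the block gave 1385 step differences called lower and 1114 higher, against 1154 and 914 without it.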
